A study of Mus musculus with 69 samples.

Results

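The 10 genes described here encode liver enzymes that modify steroids, bile acids, hormones and foreign phenols. Of these, 4 encode sulfotransferases (Sult1a1, Sult1b1, Sult1d1 and Sult5a1) and 6 encode hydroxysteroid dehydrogenases (Hsd3b2, Hsd3b3, Hsd3b5, Hsd3b7, Hsd11b1 and Hsd17b2). They were taken by gene symbol from a table of 55367 symbols, in a choice made with earlier results of these data known. Shares of members that passed a test are therefore a description. All 10 were among the 14398 genes with enough counts to be tested.

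The data are RNA-seq libraries of whole liver from C57/Bl6J mice fed a high-fat diet (HFD), taken every 3 h over 24 h to compare circadian expression between 3 groups. All groups share the genotype written as J1 J2 lf/lf, which refers to altered alleles of the c-Jun N-terminal kinases (JNK), stress-activated protein kinases encoded by Mapk8 and Mapk9. The groups are control, tied by the labels to green fluorescent protein (GFP), JNK7a, tied to Cre, and JNK7b, tied to FLPo, and the series describes the change as specific to hepatocytes. The vector, its promoter, the age of the mice, the time since treatment and the light schedule were not stated in the labels used here. Because each group received a different protein, the effect of that protein and the effect of the JNK spliceoform cannot be told apart. There were 24 control, 22 JNK7a and 23 JNK7b libraries, with 2 to 4 for each group and clock hour (2, 5, 8, 11, 14, 17, 20 and 23 h). The labels do not say that each library is a separate mouse, so p-values measure the spread between libraries.

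Sulfotransferases move a sulfonate group from the donor PAPS onto a hydroxyl or amino group, which usually makes the product more soluble and less active. Hydroxysteroid dehydrogenases oxidise or reduce a hydroxyl or keto group at a set position of the steroid ring, and so switch hormones between active and inactive forms or carry out steps of steroid and bile acid synthesis. Both families are abundant in hepatocytes, and several members are known in mouse liver for differences between the sexes or over the day.

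Each library held 26.8 to 48.6 M estimated counts (M, mega; median 32.7 M). The liver label was checked against 6 hepatocyte markers, whose summed level was 57700 to 147900 CPM (counts scaled to a common library total) over all libraries, while 3 of 4 kidney markers had no count in any group. Transcripts of the Y-linked gene Ddx3y were found in all 69 libraries at 48.4 to 81.3 CPM, and Xist did not exceed 2.13 CPM. Mapk8 averaged 17.8 ± 2.29 CPM in control (SD, n = 24), 14.6 ± 3.27 in JNK7a (SD, n = 22) and 17.7 ± 2.14 in JNK7b (SD, n = 23). Mapk9 averaged 49.9 ± 10.5, 41.0 ± 4.56 and 56.7 ± 7.9 CPM in the same order, and such gene totals do not separate exons 7a and 7b, so they do not check the labels. In 2 libraries the lipid droplet genes Cidec and Plin4 lay below every other library of their group and within the range of JNK7a. Control 8 h replicate 3 held 1.21 CPM of Cidec (other control libraries 7.01 to 107) and JNK7b 5 h replicate 2 held 7.15 CPM (other JNK7b libraries 13.6 to 106), and results that change without both are given both ways. Mapk9 also stood apart in them, at 14.1 CPM in the control library (other control 35.0 to 61.0, JNK7a 28.9 to 47.2) and 36.4 CPM in the JNK7b library (other JNK7b 42.6 to 68.3). Without them Mapk9 averaged 51.5 ± 7.41 CPM in control (SD, n = 23) and 57.6 ± 6.71 in JNK7b (SD, n = 22). These 2 stand apart by single genes. Over all tested genes, Pearson correlation with the rest of the group was lowest for JNK7b 14 h replicate 1 (0.967) and JNK7a 2 h replicate 2 (0.97). It was 0.971 for the control library and 0.98 for the JNK7b library. JNK7a 2 h replicate 2 had the highest Sult1a1 of its group (240 CPM) and the lowest Sult1b1 and Sult5a1 (11.0 and 2.69 CPM). JNK7b also falls into sets of clock hours that differ in many genes, described below.

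The dehydrogenases Hsd3b2, Hsd3b3 and Hsd3b5 come from one cluster of related genes on chromosome 3, so how far reads can tell them apart bears on their values below. In the GENCODE annotation of mm10, Hsd3b5 lies at chr3:98618634-98630252, Hsd3b2 at chr3:98709255-98724543 and Hsd3b3 at chr3:98741523-98763127, all on the minus strand. The coding sequences of Hsd3b2 and Hsd3b3 were 95.1% identical, and that of Hsd3b5 was 80.4% identical to Hsd3b2 and 79.5% to Hsd3b3. The first 120 coding bases of each are shown 5′ to 3′, from the mm10 transcripts, with capitals where a base differs from Hsd3b3.
Hsd3b3: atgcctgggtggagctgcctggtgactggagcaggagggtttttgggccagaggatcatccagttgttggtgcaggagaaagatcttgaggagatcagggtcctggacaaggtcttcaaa
Hsd3b2: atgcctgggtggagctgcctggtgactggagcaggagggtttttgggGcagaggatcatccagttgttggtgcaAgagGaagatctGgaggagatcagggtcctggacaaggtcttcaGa
Hsd3b5: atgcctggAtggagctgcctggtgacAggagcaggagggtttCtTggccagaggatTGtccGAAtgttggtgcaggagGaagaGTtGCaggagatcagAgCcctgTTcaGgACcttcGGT
Hsd3b2 differs from Hsd3b3 at 5 of these 120 positions and Hsd3b5 at 24. Over whole transcripts, 36.3% of the 31-base stretches of Hsd3b2 also occur in another gene, and 14.7% of all its stretches occur in Hsd3b3. For Hsd3b3 the share with any other gene is 9.76%, and 8.59% of all its stretches occur in Hsd3b2. Levels of Hsd3b2 and Hsd3b3 are therefore uncertain one by one. For Hsd3b5 the share is 34.1%, mostly with Gm10681, which reached at most 0.122 CPM in any library, and its closest coding relative Hsd3b4 (95.2% identical) reached at most 0.12 CPM. Hsd3b7 on chromosome 7 shares 54.8% of its stretches with the gene model Gm49388, which reached at most 8.07 CPM. Sult1b1, Sult1d1 and Hsd11b1 share none.

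Compared per length, in TPM (transcript levels corrected for gene length and for the size of the library), control livers ranked the genes from Hsd11b1 at 503 ± 60.7 TPM (SD, n = 24) to Sult5a1 at 9.97 ± 5.49 TPM. Between them stood Hsd3b7 at 286 ± 83.2, Sult1a1 at 209 ± 35.5, Hsd3b3 at 164 ± 31.9, Hsd17b2 at 92.6 ± 25.1 and Sult1d1 at 70.3 ± 14.1 TPM. Below these came Hsd3b5 at 35.8 ± 56.0, Sult1b1 at 23.2 ± 4.08 and Hsd3b2 at 21.2 ± 4.26 TPM. Neighbours in this order overlapped in their libraries, and the SD of Hsd3b5 exceeded its mean. Hourly means of Hsd3b5 in control ran from 1.81 CPM at 2 h to 158 CPM at 11 h. Its control libraries also spread within single hours, as from 0 to 34.6 CPM at 5 h and from 48.6 to 185 CPM at 8 h.

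Averaged over the 8 clock hours, JNK7a livers had more Hsd3b5, Sult5a1 and Hsd3b3 and less Sult1a1 than control, while JNK7b livers had less Sult1a1, Sult1b1, Sult5a1 and Hsd11b1 and more Hsd3b5. Differences were tested with edgeR's quasi-likelihood test, Benjamini-Hochberg adjustment over all 14398 genes and a threshold of 0.05, and "rose" and "fell" below mean that this threshold was passed. Against control, 4 of 10 members passed in JNK7a (3 higher, 1 lower), where 20.7% of all genes passed, and 5 of 10 in JNK7b (1 higher, 4 lower), where 13.4% did. Between JNK7b and JNK7a 7 of 10 passed, all lower in JNK7b, beside 22.3% of all genes. In the same comparison 5 of 6 hepatocyte markers were lower in JNK7b, and their part in the result was not tested. In the JNK7a comparison 46.6% of all genes that passed were higher, and on a log2(TPM + 1) scale 22.5% were. Between JNK7b and JNK7a these shares were 48.9% and 74.9%. Comparisons with the same control libraries share them, so they are given side by side and not as support for each other. In bulk tissue, fewer cells of a type and less RNA per cell cannot be told apart.

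**Figure D1:**
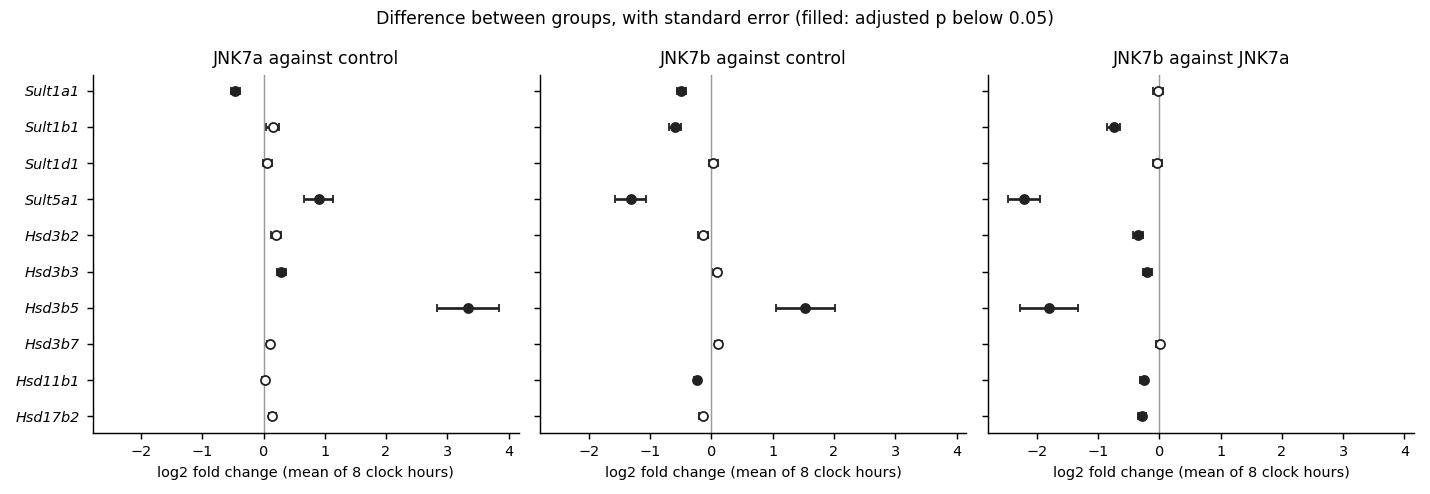
Log2 fold change of each member between groups, as the mean of 8 clock hours, with its standard error; filled points passed an adjusted p of 0.05. Hsd3b5 lies farthest to the right for JNK7a against control (3.34) and Sult5a1 farthest to the left for JNK7b against JNK7a (-2.22).

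Sult1a1, the main phenol sulfotransferase of liver, was lower in both groups than in control. Control libraries ranged from 138 to 237 CPM (median 176, n = 24), JNK7a from 79.4 to 240 (median 130, n = 22) and JNK7b from 71.0 to 242 (median 125, n = 23). The ranges overlap, since 10 of 22 JNK7a and 9 of 23 JNK7b libraries were at or above the lowest control library, the latter all from 2, 5, 14 and 17 h. Sult1a1 fell by 0.47 ± 0.0744 on the log2 scale in JNK7a (SE, edgeR adjusted p = 3.03e-06), with the same sign at 8 of 8 clock hours. In JNK7b it fell by 0.49 ± 0.0745 (SE, edgeR adjusted p = 2.68e-06), with the same sign at 6 of 8 hours. JNK7b and JNK7a did not differ by the test in their means (log2 difference -0.02, 95% interval -0.18 to 0.13).

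Sult1b1, which sulfates phenols and thyroid hormones, and Sult1d1, which in mouse sulfates catecholamines, are neighbours on chromosome 5, yet only Sult1b1 passed a test between groups. For Sult1b1 the control libraries held 15.2 to 33.1 CPM (median 24.7), JNK7a 11.0 to 41.1 (median 28.5) and JNK7b 7.86 to 35.0 (median 14.5). Sult1b1 fell by 0.60 ± 0.105 on the log2 scale in JNK7b against control (SE, edgeR adjusted p = 3.97e-05) and was 0.15 ± 0.103 higher in JNK7a, which did not pass (adjusted p = 0.35). Sult1d1 had a median of 119 CPM in control, 115 in JNK7a and 125 in JNK7b. Its log2 difference was 0.06 in JNK7a (95% interval -0.09 to 0.22) and 0.03 in JNK7b (95% interval -0.12 to 0.18).

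Sult5a1 moved in opposite directions in the 2 groups. Control libraries held 1.59 to 17.5 CPM (median 6.92), JNK7a 2.69 to 25.2 (median 13.0) and JNK7b 0.0631 to 16.6 (median 2.34). Most JNK7a libraries lay above the control median and most JNK7b libraries below it, with overlap at both ends. It rose by 0.90 ± 0.23 on the log2 scale in JNK7a (SE, edgeR adjusted p = 0.00299) and fell by 1.32 ± 0.253 in JNK7b (SE, edgeR adjusted p = 0.000148). Directly compared, JNK7b was 4.65-fold lower than JNK7a (log2 difference -2.22 ± 0.259, SE, edgeR adjusted p = 3.9e-09). Over 2, 5, 14 and 17 h alone that difference did not pass (-0.64 ± 0.344, SE, edgeR adjusted p = 0.273).

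Hsd3b5, a steroid reductase that in mice is typical of male liver, showed the largest difference between JNK7a and control among the members. Control libraries ran from 0 to 219 CPM (median 8.21), with 1 of 24 without a count, JNK7a from 14.8 to 351 (median 155) and JNK7b from 2.69 to 244 (median 24.4). At 14 h the control libraries held 1.49, 0.891 and 6.08 CPM and the JNK7a libraries 59.9, 183 and 260 CPM. At 11 h they held 219, 159 and 95.9 CPM against 155, 270 and 351 CPM. The groups were thus apart at 14 h and overlapped at 11 h, the hour at which control was highest, and the libraries did not overlap at 6 of 8 hours (20.9% of all pairs of gene and hour did not overlap in this comparison).
Hsd3b5 rose by 3.34 ± 0.508 on the log2 scale in JNK7a (SE, edgeR adjusted p = 1.66e-06), a 10.1-fold difference, and it was higher at 8 of 8 hours. Without the library control 5 h replicate 3 the log2 difference was 4.20. In JNK7b it rose by 1.53 ± 0.48 (SE, edgeR adjusted p = 0.0245), higher at 6 of 8 hours, and without control 5 h replicate 3 it was 2.39. That call was lost without the JNK7b library 5 h replicate 2 (log2 difference 1.09, edgeR adjusted p = 0.149), without control 2 h replicate 2 (1.46, adjusted p = 0.0558) and without both libraries that stand apart (1.22, adjusted p = 0.108). JNK7b was lower than JNK7a, with a log2 difference of -1.81 ± 0.477 (SE, edgeR adjusted p = 0.00387).

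Hsd3b3 and Hsd3b2 encode enzymes that form 3-keto steroids such as progesterone. Hsd3b3 had a median of 164 CPM in control (116 to 221), 200 in JNK7a (153 to 249) and 172 in JNK7b (110 to 228), so the groups overlapped widely. It rose by 0.29 ± 0.0735 on the log2 scale in JNK7a (SE, edgeR adjusted p = 0.00278), and in JNK7b the difference of 0.09 did not pass (adjusted p = 0.49). Hsd3b2 had a median of 48.3 CPM in control (26.1 to 71.0), 57.4 in JNK7a (42.4 to 69.9) and 41.0 in JNK7b (20.1 to 63.1). Its log2 difference of 0.21 ± 0.0794 in JNK7a missed the threshold by edgeR (adjusted p = 0.055). It was called in 11 of 69 refits with 1 library left out. Other tests on the same counts called it, with an adjusted p of 0.0193 by limma voom and 0.0463 by DESeq2. In JNK7b its difference of -0.14 did not pass (edgeR adjusted p = 0.247), while JNK7b was lower than JNK7a (-0.35 ± 0.0814, SE, edgeR adjusted p = 0.000861).
Hsd3b3 was lower in JNK7b than in JNK7a (log2 difference -0.20, edgeR adjusted p = 0.0489), a call that was lost in 50 of 69 refits with 1 library left out (adjusted p up to 0.124, without JNK7b 5 h replicate 1).

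Hsd3b7, an enzyme of bile acid synthesis, differed little between groups. Control held 214 to 557 CPM (median 376), JNK7a 212 to 628 (median 448) and JNK7b 187 to 541 (median 371). Its log2 difference was 0.11 in JNK7a (95% interval 0.00 to 0.21, edgeR adjusted p = 0.156) and 0.11 in JNK7b (95% interval 0.01 to 0.22, edgeR adjusted p = 0.163), and neither passed after adjustment.

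Hsd11b1, which regenerates active glucocorticoid from its inactive keto form, was the most abundant member and was lower in JNK7b. Control libraries held 383 to 634 CPM (median 495), JNK7a 434 to 620 (median 521) and JNK7b 276 to 570 (median 421). JNK7b and control overlapped, although the lowest JNK7b libraries lay below every control library. Hsd11b1 fell by 0.24 ± 0.05 on the log2 scale in JNK7b (SE, edgeR adjusted p = 0.000533), and in JNK7a the difference was 0.02 (95% interval -0.08 to 0.12). Hsd17b2, which oxidises estradiol and testosterone to less active forms, had a median of 77.9 CPM in control (43.2 to 116), 85.9 in JNK7a (53.2 to 125) and 66.6 in JNK7b (35.8 to 113). Neither difference from control passed (log2 0.14 and -0.14, edgeR adjusted p = 0.0766 and 0.0897), but JNK7b was lower than JNK7a (-0.28 ± 0.0587, SE, edgeR adjusted p = 0.000205), at 8 of 8 hours.

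Taken at each clock hour alone, the differences of JNK7b that passed all stood at the same 4 hours. Of 80 pairs of member and hour, 12 passed against control, all lower in JNK7b, at 8, 11, 20 and 23 h and at no other hour, beside 2.12% of pairs over all genes. Sult1a1 was lower at 4 hours, Sult1b1 and Sult5a1 at 3 each and Hsd11b1 at 2. By hour, 4.14% of all genes passed at 8 h, 3.23% at 11 h, 4.22% at 20 h and 5.13% at 23 h, against 0% at 2 h, 0.0139% at 5 h, 0.250% at 14 h and 0% at 17 h, where edgeR called no member and 0, 2, 1 and 1 members had an unadjusted p below 0.05. Leaving out 1 library at a time, 4 of the 12 calls held in every refit, namely Sult1a1 at 8, 20 and 23 h and Hsd11b1 at 8 h, and the other 8 were each lost in at least 1.
At 11 h the calls were lost without JNK7b replicate 1 (edgeR adjusted p = 0.097 for Sult1a1, 0.299 for Sult1b1 and 0.113 for Sult5a1) or without JNK7b replicate 2 (0.0811 for Sult1a1 and 0.0745 for Sult1b1). At 20 h Hsd11b1 was lost without JNK7b replicate 3 (adjusted p = 0.0951) or control replicate 4 (0.0774), and Sult1b1 without JNK7b replicate 2 (0.0843) or control replicate 4 (0.0754). At 23 h Sult1b1 was lost without JNK7b replicate 1 (adjusted p = 0.0703) or control replicates 1, 2 or 3 (0.0618, 0.0573 and 0.0533). Sult5a1 at 23 h was lost without JNK7b replicates 1 or 2 (adjusted p = 0.0735 and 0.0772) or control replicate 2 (0.338), and at 8 h without JNK7b replicate 3 (0.115) or control replicate 1 (0.055). Without both libraries that stand apart, Sult5a1 at 8 h was lost as well (adjusted p = 0.0501).
Against JNK7a, 9 of 80 pairs passed, all lower in JNK7b and all at the same 4 hours, beside 2.68% of pairs over all genes, and 5 held in every refit. The calls that were lost were Sult1b1 and Sult5a1 at 11 h without JNK7b replicate 1 (edgeR adjusted p = 0.203 and 0.0638), and Hsd17b2 at 20 h without JNK7a replicates 1 or 2 (0.0765 and 0.165). The last was Sult1b1 at 23 h, without JNK7a replicate 1 (adjusted p = 0.0543) or JNK7b replicate 1 (0.0547).
JNK7a differed from control in 3 of 80 pairs, beside 1.70% over all genes. These were Hsd3b2 at 5 h (62.1 against 36.0 CPM, edgeR adjusted p = 0.0261), Sult1a1 at 14 h (95.8 against 168, adjusted p = 0.0173) and Hsd3b5 at 14 h (168 against 2.82, adjusted p = 0.0245). Each was lost without some of the libraries of its own hour. For Hsd3b2 at 5 h these were control replicate 1 (edgeR adjusted p = 0.0713), control replicate 2 (0.24), JNK7a replicate 2 (0.122) and JNK7a replicate 3 (0.0501). For Sult1a1 at 14 h they were control replicate 3 (adjusted p = 0.129), JNK7a replicate 1 (0.109) and JNK7a replicate 3 (0.0671). For Hsd3b5 at 14 h they were control replicate 1 (adjusted p = 0.114), replicate 2 (0.0933) and replicate 3 (0.0577) and JNK7a replicate 3 (0.0796). Without control 14 h replicate 3 or without JNK7a 14 h replicate 3, 1 of the 80 pairs passed. By limma voom 9 passed, 7 gained and 1 lost (Hsd3b5 at 14 h, adjusted p = 0.168). For JNK7b against JNK7a 17 passed by voom, 8 gained and 0 lost. For JNK7b against control 12 passed by voom, 2 gained (Hsd17b2 at 11 h and Hsd11b1 at 23 h) and 2 lost (Sult5a1 at 8 h, adjusted p = 0.15, and at 23 h, 0.0809). The shares of all genes that passed by voom at single hours were not computed, so these gains and losses are a description. For the mean over all hours, voom called more genes than edgeR. It called 3166 in place of 2984 for JNK7a against control, and 2235 in place of 1935 for JNK7b against control. Between JNK7b and JNK7a it called 3318 in place of 3207.

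**Figure D2:**
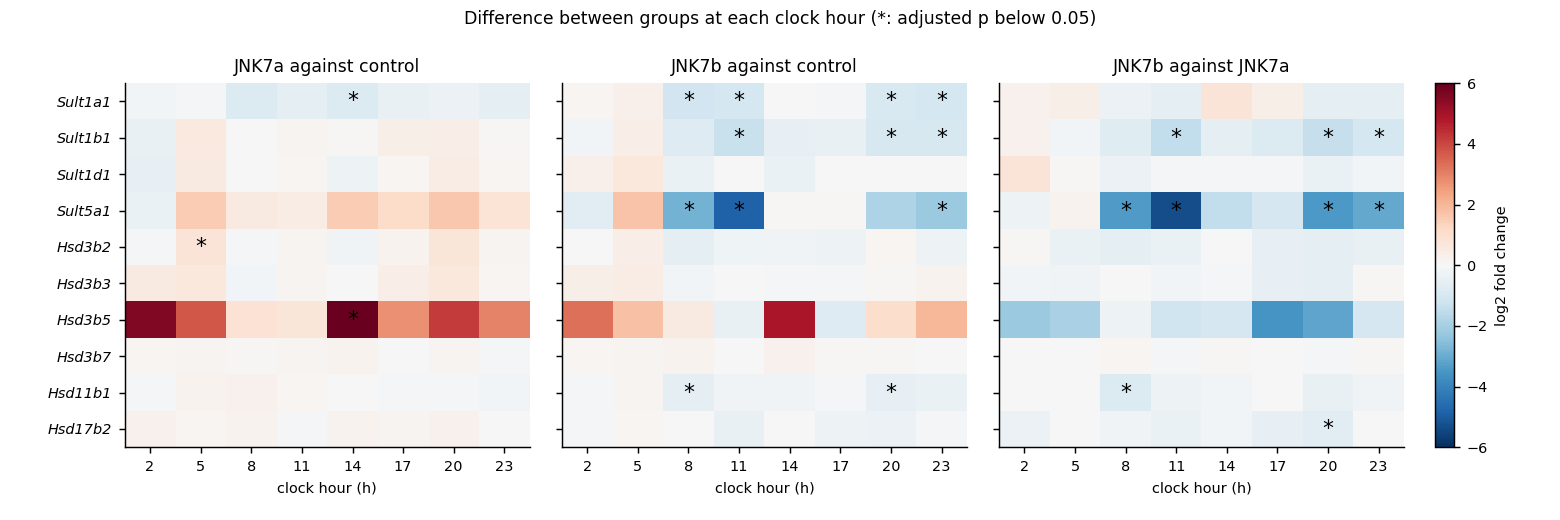
Log2 fold change of each member at each clock hour (colour, red higher and blue lower in the first group named), with an asterisk where the adjusted p was below 0.05. The asterisks of both JNK7b comparisons stand at 8, 11, 20 and 23 h.

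The JNK7b libraries therefore fell into sets of hours that alternate, with hours 12 h apart lying together. In Sult1a1 the 13 JNK7b libraries of 8, 11, 20 and 23 h held 71.0 to 129 CPM, and the 10 of 2, 5, 14 and 17 h held 125 to 242 CPM, with a small overlap. In Sult5a1 the same sets held 0.0631 to 3.40 CPM and 3.73 to 16.6 CPM, without overlap. Sult1b1 averaged 12.7 ± 2.75 against 20.9 ± 6.88 CPM (SD, n = 13 and 10), and Hsd11b1 373 ± 57.0 against 488 ± 47.4 CPM.
In control the sets overlapped, as in Sult5a1 with 2.72 to 17.5 CPM and 1.59 to 11.7 CPM. In JNK7a they overlapped too, with 6.44 to 19.8 CPM and 2.69 to 25.2 CPM. The sets were recognised in these data, so these ranges are a description.

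**Figure D3:**
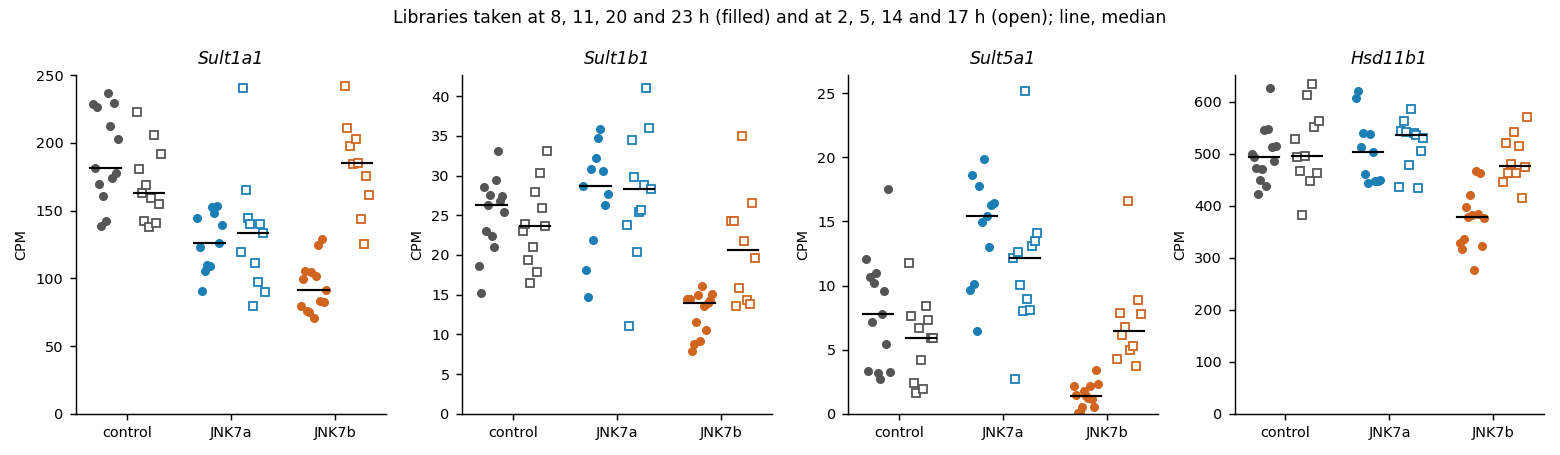
CPM of 4 members in every library, split into 8, 11, 20 and 23 h (filled circles) and 2, 5, 14 and 17 h (open squares), with the median of each set as a line. For Sult5a1 in JNK7b the filled points reach at most 3.40 CPM and the open points start at 3.73 CPM.

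Fitted over 8, 11, 20 and 23 h alone, a choice made after seeing the data, 5 of 10 members were lower in JNK7b than in control, beside 20.5% of all genes. Sult1a1 was 2.08-fold lower, Sult1b1 2.02-fold, Sult5a1 7.65-fold, Hsd11b1 1.33-fold and Hsd17b2 1.16-fold (edgeR adjusted p from 1.23e-11 to 0.0408). Over 2, 5, 14 and 17 h edgeR called 0 of 10 members, with 1 at an unadjusted p below 0.05, beside 0.188% of all genes. In those hours Sult1a1 differed from control by 0.07 ± 0.11 on the log2 scale (SE, edgeR adjusted p = 0.918) and Hsd3b5 by 2.30 ± 0.744 (adjusted p = 0.234). The difference of Hsd3b5 was smaller over 8, 11, 20 and 23 h, at 0.77 ± 0.611 (SE, edgeR adjusted p = 0.421), unlike that of the members that were lower there. Against JNK7a, 6 members were called over 8, 11, 20 and 23 h (21.7% of all genes), all lower in JNK7b. Over 2, 5, 14 and 17 h 3 were (9.13% of all genes). There Sult1a1 was 1.36-fold higher in JNK7b (edgeR adjusted p = 0.00563), the opposite of its sign in the other 4 hours, and Hsd3b5 and Hsd17b2 were lower.
The test of whether a difference varies with the hour called Sult1a1 and Sult5a1 for JNK7b against control (edgeR adjusted p = 0.000506 and 0.00264, beside 1.72% of all genes). It called the same 2 genes against JNK7a (adjusted p = 0.00691 and 0.00739, beside 2.19%), where limma voom called 1 of them, Sult1a1. For JNK7a against control edgeR called 0 members, with 2 at an unadjusted p below 0.05, 0 by limma voom, and 0.00695% of all genes.
The labels name no batch. The summed level of 6 hepatocyte markers in JNK7b had a median of 76000 CPM over 8, 11, 20 and 23 h (57700 to 91500) and 82200 over the other hours (73400 to 97000), with 4 of 6 markers lower than in control by the mean test. The summed level of 7 pericentral hepatocyte markers in JNK7b was 4550 to 6980 CPM over 8, 11, 20 and 23 h and 5330 to 11100 over the other hours, while that of 6 periportal markers was 1680 to 3990 and 1860 to 3950. The pericentral markers did not move together: by the mean test against control 2 were higher in JNK7b (Glul and Rhbg) and 3 lower (Oat, Slc1a2 and Cyp2e1). Among the periportal markers 1 was higher (Cdh1) and 0 lower. Lists of 10 other cell types or tissues held 27 tested markers, and the adipocyte and kidney lists had no tested marker. In JNK7b against control 3 rose (Cd68, Cd8a and Jchain) and 1 fell (Fabp2), where 13.4% of all genes passed. In JNK7a 3 rose (Cd3e, Cd8a and Jchain) and 2 fell (Fabp2 and Cyp17a1), where 20.7% of all genes passed. Cd3e and Cd8a reached at most 1.3 and 2.18 CPM. Between JNK7b and JNK7a, Cyp17a1 was higher and Fabp2 lower, where 22.3% of all genes passed. The markers that fell come from the intestine list and the adrenal and gonad list. Between JNK7b and JNK7a 5 of 6 hepatocyte markers were called, all lower in JNK7b, such as Apoa1 (log2 difference -0.62) and Alb (-0.28). In JNK7a 2 of 6 hepatocyte markers were higher than in control, with a median summed level of 92730 against 91030 CPM. The part of these markers in the results was not tested.

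Over the day, Hsd3b7 and Hsd17b2 had a 24 h rhythm in every group, and Hsd3b5 and Hsd3b3 in control. A cosine of 24 h period was called in 4 of 10 members in control (23.6% of all genes), 2 in JNK7a (26.2%) and 3 in JNK7b (17.0%). Hsd3b7 averaged 531 CPM at 11 h and 235 CPM at 20 h in control. Its amplitude was 0.51 ± 0.059 in control, 0.56 ± 0.0632 in JNK7a and 0.57 ± 0.0604 in JNK7b (log2 CPM ± SE), with peaks at 9.8, 10 and 9.7 h. Hsd17b2 peaked at 8.9, 9.1 and 7.8 h with amplitudes of 0.44, 0.40 and 0.51. The highest hourly mean of Hsd3b7 stood at 11 h in all 3 groups.
Hsd3b5 had the widest swing, from 1.81 CPM at 2 h to 158 CPM at 11 h in control, an amplitude of 2.14 ± 0.651 (log2 CPM ± SE, edgeR adjusted p = 0.00864) with a peak at 11.5 h. In JNK7a its lowest hourly mean was 84.8 CPM at 2 h and its highest 259 CPM at 11 h, an amplitude of 0.56 ± 0.672 (adjusted p = 0.765). In JNK7b the amplitude was 0.87 ± 0.653 (adjusted p = 0.254). Hsd3b3 had an amplitude of 0.26 ± 0.0746 in control with a peak at 12.7 h (adjusted p = 0.0143). For Sult1d1 the amplitude was 0.32 ± 0.0881 in JNK7b with a peak at 23 h (adjusted p = 0.0158), beside 0.24 in control (adjusted p = 0.0703) and 0.26 in JNK7a (adjusted p = 0.0523). In JNK7a the rhythm of Sult1d1 and that of Sult1a1 (adjusted p = 0.054) also passed without JNK7a 2 h replicate 1 (0.0289 and 0.0322) and without JNK7b 8 h replicate 1 (0.0474 and 0.0466), which makes 4 members. Limma voom also called 4, gaining Sult1d1 (adjusted p = 0.0154) and Sult1b1 (0.0495) and not Sult1a1. Without both libraries that stand apart, the rhythm of Sult1d1 passed in control (adjusted p = 0.0384) and in JNK7a (0.047).
No difference of rhythm between groups was called for a member. EdgeR called 0 members in each of the 3 comparisons, with 0 at an unadjusted p below 0.05 and 0 by limma voom, beside 0.00695%, 0% and 0% of all genes, so the loss of the Hsd3b5 call in JNK7a and JNK7b is not shown to be a difference from control.

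**Figure D4:**
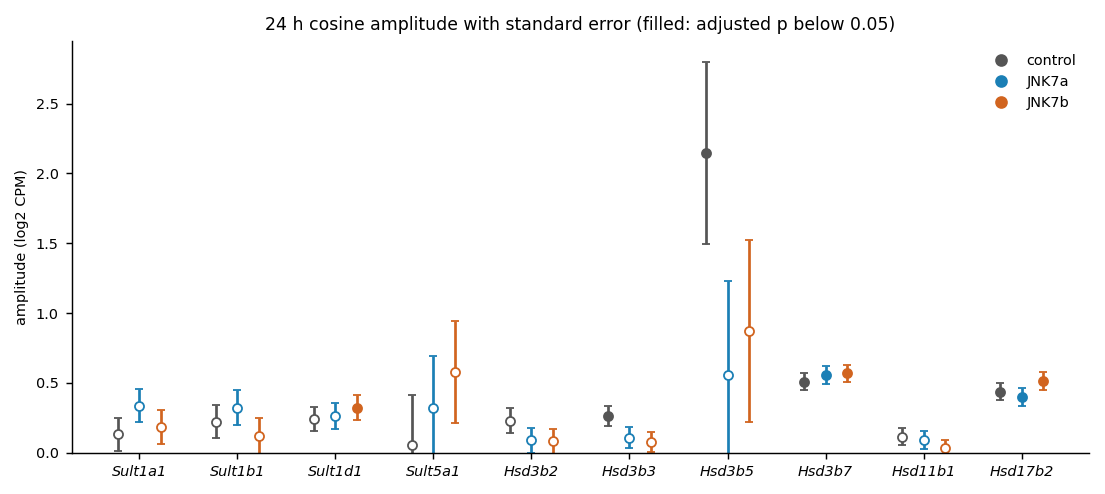
Amplitude of a 24 h cosine fitted to log2 CPM for each member and group, with its standard error; filled points passed an adjusted p of 0.05. Hsd3b5 in control is highest at 2.14, and Hsd3b7 and Hsd17b2 are filled in all 3 groups.

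Tested for change of any shape between hours, 4 members were called in control (Sult1d1, Hsd3b5, Hsd3b7 and Hsd17b2; 24.5% of all genes) and 4 in JNK7a (Sult1a1, Sult1d1, Hsd3b7 and Hsd17b2; 25.5%). In JNK7b 7 were (23.9%), adding Sult1a1, Sult1b1, Sult5a1 and Hsd11b1 to Sult1d1, Hsd3b7 and Hsd17b2. In JNK7b the lowest hourly mean of Sult5a1 was 0.319 CPM at 11 h and the highest 11.7 CPM at 5 h. The 24 h cosine did not pass for Sult1a1, Sult1b1, Sult5a1 or Hsd11b1 in JNK7b (adjusted p = 0.433, 0.774, 0.813 and 0.939). A 24 h cosine gives hours 12 h apart opposite signs, so it cannot follow a pattern in which such hours lie together. No conclusion on these 4 genes is drawn from it. The call of Sult1d1 in control (edgeR adjusted p = 0.048) was lost in 46 of 69 refits with 1 library left out, with an adjusted p of up to 0.135 without control 11 h replicate 1, and also without both libraries that stand apart (0.0501). In JNK7a, Sult1a1 was lost without JNK7a 2 h replicate 2 (adjusted p = 0.062) or JNK7a 14 h replicate 1 (0.0649), and Sult1d1 without JNK7a 20 h replicate 1 (0.11). In JNK7b, Sult1d1 was lost without JNK7b 8 h replicate 1 (0.0511). By limma voom Hsd3b5 in control (adjusted p = 0.108) and Sult1a1 in JNK7a (0.145) were not called, while Hsd3b2 and Hsd3b3 in control and Hsd3b5 in JNK7b were.

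**Figure D5:**
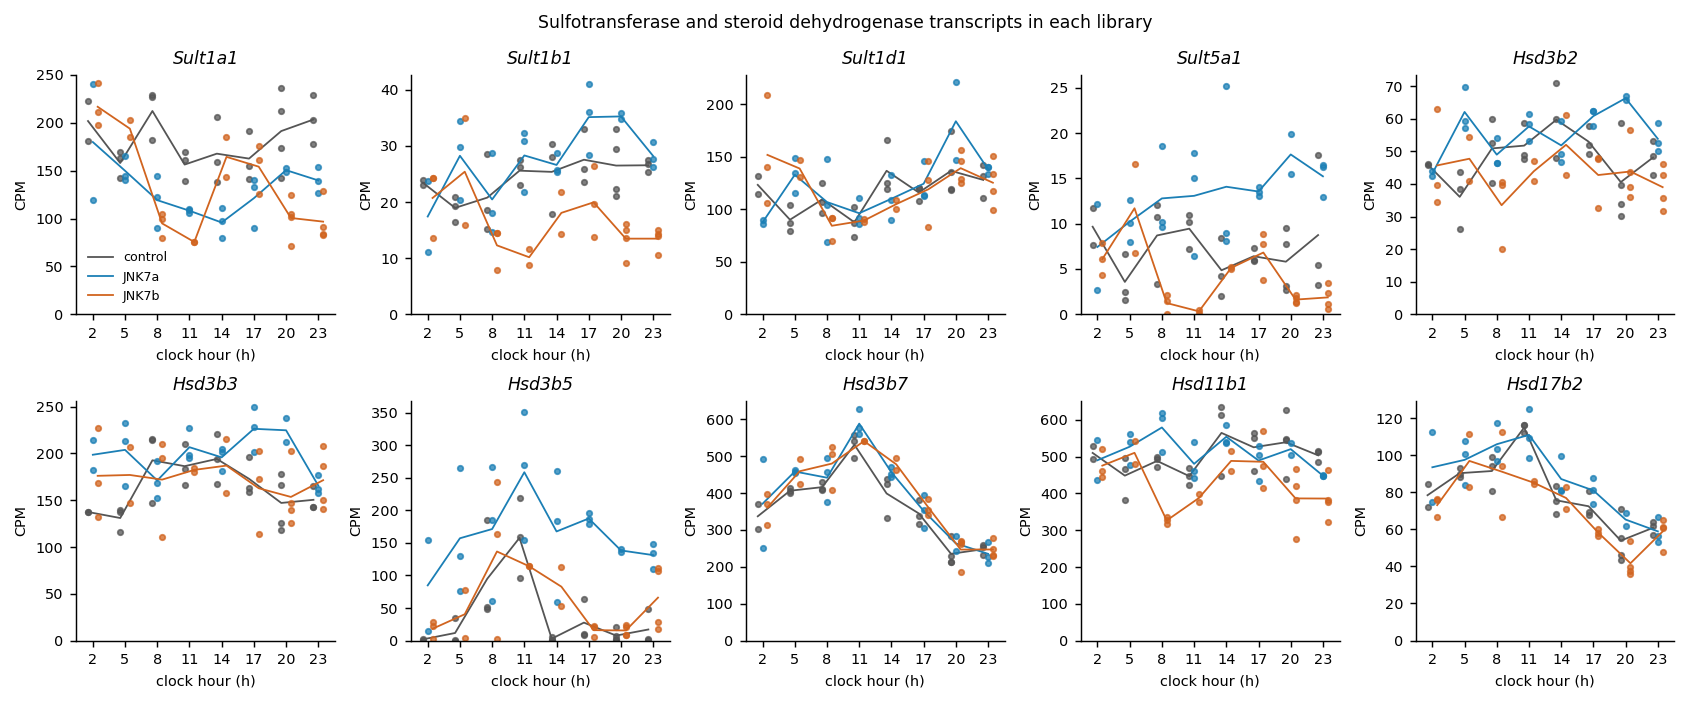
CPM of each member in every library by clock hour (points, shifted slightly by group) with lines through the hourly means of control (grey), JNK7a (blue) and JNK7b (orange). Hsd3b7 has its highest mean at 11 h in all groups, and Hsd3b5 in control has its highest mean, 158 CPM, at 11 h.

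The proximal promoters of Sult1a1, Sult1b1 and Sult5a1, the sulfotransferases that were low in JNK7b at the same hours, are shown because JNK acts on AP-1 transcription factors. They are RefSeq sequences of GRCm38.p6 from 250 bases before to 50 after a start, 5′ to 3′ on the gene's strand, with capitals for a motif found on either strand. Sult1a1 lies at chr7:126676369-126676668, Sult1b1 at chr5:87538146-87538445 for its first start and chr5:87536173-87536472 for the second, and Sult5a1 at chr8:123158231-123158530, all on the minus strand.
Sult1a1: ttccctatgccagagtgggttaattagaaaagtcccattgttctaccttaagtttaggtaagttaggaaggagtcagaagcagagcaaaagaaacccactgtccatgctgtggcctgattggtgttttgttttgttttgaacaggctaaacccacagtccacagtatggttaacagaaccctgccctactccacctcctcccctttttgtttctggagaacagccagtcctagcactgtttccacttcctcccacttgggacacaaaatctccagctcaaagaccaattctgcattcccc
Sult1b1 first start: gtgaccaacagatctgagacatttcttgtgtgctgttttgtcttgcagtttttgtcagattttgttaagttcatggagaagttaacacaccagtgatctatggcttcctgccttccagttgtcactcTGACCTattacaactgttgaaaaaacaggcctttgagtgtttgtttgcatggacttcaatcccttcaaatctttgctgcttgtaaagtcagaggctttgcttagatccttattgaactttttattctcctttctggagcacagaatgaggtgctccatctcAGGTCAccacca
Sult1b1 second start: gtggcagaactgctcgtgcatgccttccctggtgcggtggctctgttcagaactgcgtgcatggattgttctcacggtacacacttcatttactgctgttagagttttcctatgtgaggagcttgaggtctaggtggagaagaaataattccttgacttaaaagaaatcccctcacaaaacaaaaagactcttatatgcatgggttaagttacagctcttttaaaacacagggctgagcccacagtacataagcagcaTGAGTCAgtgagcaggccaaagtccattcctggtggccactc
Sult5a1: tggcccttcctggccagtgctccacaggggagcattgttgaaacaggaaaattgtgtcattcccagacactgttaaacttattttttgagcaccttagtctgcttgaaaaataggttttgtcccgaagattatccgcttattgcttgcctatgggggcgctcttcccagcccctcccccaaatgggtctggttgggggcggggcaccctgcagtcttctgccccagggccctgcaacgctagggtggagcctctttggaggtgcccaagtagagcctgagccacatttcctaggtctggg
The motifs searched were AP-1 (TGACTCA), the E-box (CACGTG), a STAT5 site (TTCNNNGAA), a ROR element (AGGTCA) and the D-box (TTATGTAA), over 11 promoters of 9 members. Sult1b1 held a match to the AP-1 letters at its second start and 2 to the letters AGGTCA at its first, and Hsd3b7 a match to the STAT5 letters. These are matches of letters alone, without regard to flanking bases, and binding was not tested. Of 32851 promoters of this length, 5.2% held the AP-1 letters, 16.3% the ROR letters, 8.3% the STAT5 letters, 7.15% the E-box and 0.938% the D-box. No motif of the 5 was shared by the 3 sulfotransferases in these windows.

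Other genes of the same pathways were read from lists of related genes, which were also chosen with earlier results of these data known. Of 25 sulfation genes outside the members, 11 were tested, and 3 passed in JNK7a against control (1 higher, 2 lower), or 27.3% beside 20.7% of all genes, with a median log2 difference of 0.06 beside 0.00 over all genes. Sult2a8, a sulfotransferase of bile acids in mouse liver, rose by 0.40 ± 0.0945 on the log2 scale (SE, edgeR adjusted p = 0.00117), and Impad1 and Slc26a2 fell by 0.12 and 0.21 (adjusted p = 0.0258 and 0.0383). In JNK7b 1 was higher and 2 lower than in control, again 27.3%, beside 13.4% of all genes, with a median of -0.07 beside -0.01. These were Papss2, which makes the sulfonate donor, by 0.21 (adjusted p = 0.0499), and Slc35b2 and Slc26a1, which carry PAPS and sulfate across membranes, by -0.11 and -0.14 (adjusted p = 0.0285 and 0.032). Between JNK7b and JNK7a Slc26a1 alone passed, at -0.20 (edgeR adjusted p = 0.000841), which is 9.09% of the list beside 22.3% of all genes.
Of 33 steroid enzyme genes 21 were tested. In JNK7a 10 were higher and 5 lower than in control, or 71.4% beside 20.7% of all genes, with a median of 0.15 beside 0.00. Akr1c14, a reductase of 3-keto steroids, rose by 0.56 ± 0.0506 (SE, edgeR adjusted p = 2.59e-12), and Hsd17b7, of cholesterol synthesis, by 0.70 ± 0.107 (adjusted p = 1.61e-06). Hsd17b4, of peroxisomal oxidation, fell by 0.24 and Hsd17b13, a lipid droplet protein, by 0.58. In JNK7b 5 were higher and 2 lower than in control, or 33.3% beside 13.4%, with a median of 0.03. Akr1c14 rose by 0.26, Hsd17b7 by 0.51 and Hsd17b11 by 0.18, and Akr1c6 fell by 0.19. Between JNK7b and JNK7a 5 were higher and 7 lower, or 57.1% beside 22.3%, with a median of -0.07. The log2 difference was -0.47 for Akr1c6, -0.24 for Akr1c12, 0.40 for Hsd17b12 and 0.28 for Hsd17b4.

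By their pattern over the 24 cells of group and hour, the genes most like Hsd3b5 among 11291 were Slco1a1 (r = 0.93), Cyp7b1 (0.91) and Adgrf1 (0.91), where r is Pearson's coefficient of mean log2 CPM and no test was made. Those most like Sult5a1 were Wfdc21, Amy1 and Cdhr5 (r = 0.91, 0.91 and 0.90), and Gstt1 and Crls1 were among those most like Sult1a1 (0.89 and 0.85). Sult1b1 was most like Pxmp2 (0.94) and Sult1d1 most like Asl (0.88). Hsd3b7 was most like Ctdsp1 (0.91) and Hsd17b2 most like Ubxn1 (0.93). Among the members themselves the closest pairs were Sult1b1 with Sult5a1 (0.88) and Hsd3b7 with Hsd17b2 (0.85). All points share libraries and their depth.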

How the data were processed

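RNA was extracted from liver with an RNeasy kit and DNase I, enriched for polyA, and read as pairs of 150 bases on a NovaSeq6000, per the labels' protocols. Adapters were trimmed with cutadapt and transcripts quantified with Salmon against mm10, per the submitters' processing notes, with versions not given in the sources used here. The authors deposited estimated counts per gene, made from length-scaled abundance, and TPM values per gene, scaled by the authors for length and library total. Salmon shares reads between near-identical transcripts, which bears on the Hsd3b genes.

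Lines sharing a symbol (234 of 55487) were summed and estimated counts rounded. Of 69 pairs of libraries from the same group and clock hour, 0 agreed within sampling noise (chi-square per degree of freedom 22.4 to 261). Genes were filtered with filterByExpr (14398 left), scaled by TMM and fitted in edgeR 4.0.16 (R 4.3.3) by the robust quasi-likelihood method, with 1 coefficient for each group and clock hour (45 residual degrees of freedom) or a 24 h cosine and sine for each group (60). P-values were adjusted by the Benjamini-Hochberg method over all genes, at each hour separately for the hourly tests, with a threshold of 0.05. CPM are the rounded counts divided by the TMM-scaled library size. A difference of group means is the mean of the 8 hourly log2 differences, and its SE comes from the F statistic.

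Alternatives were limma 3.58.1 (voom, or log2(TPM + 1) and log2(TPM + 0.1)), DESeq2 1.42.0, other scaling, filters and designs, and leaving out libraries or clock hours. Voom for differences that vary with the hour, and fits over sets of 4 hours, were added after seeing the data. The scripts were tested on simulated data. The members, the lists of related genes and the libraries that stand apart were chosen with earlier results of these data known. All members are named; of each list, up to 4 called genes with the smallest p per comparison; and for likeness up to 3 genes with the largest Pearson coefficient among those with a mean of at least 1 CPM and a symbol that is not provisional, of which 1 is not reported here. Replicate numbers do not mark a shared source in the labels, and of 62 pairs of libraries with the same number and hour 2 correlated above 0.1 (median -0.0127), so they were not treated as pairs. Libraries held 26.8 to 48.6 M estimated counts.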

Additional observations from a re-analysis of the deposited data

Results flagged for a closer look

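In Hsd3b7, 1 of the 4 JNK7b libraries of 20 h lay far below the others, at 187 CPM in replicate 2 against 262, 267 and 271 CPM. Its gap to the nearest library exceeded Dixon's 95% critical value, 30 groups of 4 libraries were examined in this way, and chance gives such a gap in about 1 group in 20. The difference of JNK7b from control varied with the clock hour in Sult1a1 (edgeR adjusted p = 0.000506) and Sult5a1 (0.00264), and so did the difference of JNK7b from JNK7a (0.00691 and 0.00739). In both genes and both comparisons JNK7b was the lower group at 8, 11, 20 and 23 h. Against JNK7a, Sult1a1 passed at 0 of 8 single hours. Over 2, 5, 14 and 17 h it was higher in JNK7b than in JNK7a (log2 difference 0.44, edgeR adjusted p = 0.00563).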

How the results depend on the processing

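Estimated counts of near-identical Hsd3b genes are uncertain one by one. Counts of members called stayed within 1.5 times of those reported, except for the following. JNK7a against control had 3 hourly calls, 9 by limma voom and 0 with no filter, and 1 to 4 with 1 library left out. JNK7b against JNK7a had 9 hourly calls and 17 by voom, and 2 members whose difference varied with the hour but 1 by voom. JNK7a had 2 rhythmic members, 4 by voom and 2 to 4 with 1 library left out. The shares of all genes called by voom at single hours, for variation with the hour and for rhythms were not computed. Over 2, 5, 14 and 17 h alone, JNK7b differed from control in 0 members and from JNK7a in 3.

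Signs changed mostly in values that passed no test. For JNK7a against control, Sult1d1 was -0.017 on log2(TPM + 1), -0.018 on log2(TPM + 0.1) and -0.0092 without 5 h. Hsd11b1 was -0.047 on both TPM scales, -0.0079 without 5 h and -0.0098 without 8 h. For JNK7b against control, Sult1d1 was -0.088 over 8, 11, 20 and 23 h, -0.010 without 2 h, -0.057 without 5 h and -0.0046 to 0.055 with 1 library left out. Over 2, 5, 14 and 17 h Sult1a1 was 0.073 and Sult5a1 0.30. For JNK7b against JNK7a, Sult1a1 was 0.050 on both TPM scales, 0.025 by voom, 0.44 over 2, 5, 14 and 17 h, and 0.046, 0.055, 0.048 and 0.019 without 11, 20, 23 or 8 h. Sult1d1 was 0.034 on both TPM scales, 0.18 over 2, 5, 14 and 17 h, 0.019 without 20 h and 0.011 without 8 h. Hsd3b7 was -0.0060 over 8, 11, 20 and 23 h, -0.0038, -0.0045 and -0.011 without 14, 23 or 8 h and -0.0045 without both libraries that stand apart. With 1 library left out the JNK7b-JNK7a values were -0.076 to 0.049 for Sult1a1, -0.066 to 0.012 for Sult1d1 and -0.046 to 0.076 for Hsd3b7. The causes were not tested.

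Calls near the threshold moved too. Hsd3b5 in JNK7b against control was not called in the additive design (adjusted p = 0.105), with no filter (0.0527), with only the 2 groups (0.0576), without 14, 2 or 23 h (0.169, 0.0719 and 0.0675) or over either set of 4 hours (0.421 and 0.234). Hsd3b3 in JNK7b against JNK7a was not called under 14 of 21 alternatives. Hsd3b2 in JNK7a against control was not called under 11 of 19. It passed by DESeq2 (adjusted p = 0.0463), by limma voom (0.0193), with only the 2 groups (0.0156) and with a mean of at least 1 CPM (0.0463). Without 14, 2 or 8 h it passed as well (edgeR adjusted p = 0.0214, 0.026 and 0.0324). With the replicate number as a block within the clock hour, 5, 5 and 6 members were called, in place of 4, 5 and 7: Hsd3b2 in JNK7a against control was gained (0.24, adjusted p = 0.0299) and Hsd3b3 in JNK7b against JNK7a lost (-0.21, 0.0534), and Hsd3b5 was 3.99 in JNK7a and 2.25 in JNK7b. Over all genes this fit called 2785, 1495 and 2674, in place of 2984, 1935 and 3207. The replicate numbers do not pair libraries, so a call lost in this fit is not read as a weaker effect.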
